A study of Homo sapiens with 27 samples.

Results

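SUM159 is a human triple negative breast cancer (TNBC) cell line of the claudin-low, mesenchymal subtype. Untransduced wild type cells of this line were profiled by RNA-seq in 2 batches, which the labels mark B1 and B2. The titles of the 3 wild type libraries of B2 add run 2, and these were compared here with the 3 wild type libraries of B1. Below, B1 is called run 1 and B2 run 2, and the labels do not say what a run was. The members are these 6 of the 27 libraries of the series, taken by their cell line, vector and run labels and not by any measured value. The series as a whole asks what silencing of ZEB1, a repressor of epithelial genes, does to SUM159 and MDA-MB-231 cells that carry dCas9-KRAB (vector pLV-KRAB) and gRNAs to the ZEB1 promoter. Neither wild type group carries the vector or a gRNA, and no treatment is labelled for either. Run 1 holds 12 SUM159 libraries, which are wild type, No gRNA (pLV-KRAB without a gRNA, puromycin selected), gRNA 4 and All gRNA, each with 3 replicates. Run 2 holds the 3 further SUM159 wild type libraries and 12 MDA-MB-231 libraries.

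All SUM159 cells were grown in F12 medium with Hepes, insulin, hydrocortisone, an antibiotic-antimycotic mix and heat-inactivated fetal bovine serum, and lysed in QIAzol. The labels call the replicates biological, and the study's methods call them individual clones. P-values therefore measure the spread between these libraries, and nothing in the labels says that the cultures of a run were started or harvested apart. The run label is the only recorded difference between the groups. The labels number the replicates 1 to 3 in both runs and do not say whether run 2 used new cultures or the same ones. Culture, RNA extraction, library preparation and sequencing of the 3 libraries of a run coincide with the run, so technical and culture differences cannot be told apart in any result below. No dose, passage number, density or harvest time was labelled. Run 1 No gRNA cells were used as a second run 1 reference, since they share the run of the first group but differ from it by the vector and its selection.

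A cultured line has no fixed expression state. Cell-cycle genes are transcribed in dividing cells, and their promoters are switched in G1/S by E2F and in G2/M by complexes that bind CCAAT boxes and CHR elements. NF-kB and AP-1 drive chemokines and interleukins such as CXCL8 and IL1A. mTORC1 acts on mRNAs that start with a pyrimidine tract, which encode ribosomal proteins, and the unfolded protein response, NRF2 and ATF4 raise chaperones, antioxidant enzymes and amino acid enzymes. Matrix and adhesion genes respond to density, serum and TGF-beta.

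Most marks of the line were found in both runs. VIM, an intermediate filament of mesenchymal cells, was at 3182 ± 77.7 (SD, n = 3) CPM, the count scaled to library size, in run 1 and 1726 ± 35.4 in run 2. The estrogen and progesterone receptor genes ESR1 and PGR were at most 0.0530 and 0.0198 CPM in the 6 libraries, CLDN3 was at 0 in all 6, CLDN7 was at most 0.192 and CDH1 (E-cadherin) at most 0.139. CLDN4, another claudin, was at 0.226 ± 0.0787 CPM in run 1 and 0.725 ± 0.353 CPM in run 2. ERBB2, also a receptor gene of the triple negative label, was expressed in both runs, at 46.0 ± 7.63 and 60.8 ± 4.03 CPM. KRT75 and NETO2, which reached at most 0.0596 and 0.0573 CPM in MDA-MB-231, were at 406 ± 2.70 and 189 ± 6.76 CPM in run 1 and 122 ± 3.43 and 182 ± 12.6 CPM in run 2. Of 20 markers of other cell types, including those of leukocytes, endothelium, blood and muscle, 17 were too low to test, and their sum over all 20 was 1.45 to 2.71 CPM in run 1 and 3.06 to 3.21 CPM in run 2. CD14 was the only one of the other 3 to pass, with 0.149 ± 0.0956 CPM in run 1 and 1.38 ± 0.376 CPM in run 2.

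Totals were 19970852 to 21473757 estimated counts per library in run 1 and 15546504 to 15671408 in run 2. Replicates of a run were not copies of each other, with a chi-square per degree of freedom between 7.15 and 10.9 for each pair. Across genes, Pearson's r of log2 CPM was 0.984 to 0.985 between run 1 libraries, 0.981 to 0.982 between run 2 libraries and 0.934 to 0.938 between libraries of different runs. Wild type and No gRNA libraries of run 1 correlated at 0.960 to 0.964. Genes are not independent replicates, so these values only order the libraries. All MDA-MB-231 libraries belong to run 2. A set of 8 genes was picked for over 50 CPM in MDA-MB-231 wild type and few counts in run 1 SUM159. The limit was at most 3 counts in each of the 12 run 1 SUM159 libraries, which fixed their low level there. They summed to 1.60 to 4.30 CPM in the run 2 SUM159 libraries. The run 2 values were 0.0818% to 0.637% of the MDA-MB-231 level. The highest share, 0.637%, was that of FLNC, which like the other genes was near 0 in SUM159. Of the 551 genes called higher in run 2 below, 1, MMP1, lay at or below that share of its MDA-MB-231 level. This count depends on a share set by 1 gene with few reads. Whether other calls hold reads from MDA-MB-231 was not tested.

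Of 57165 genes in the deposited values, 15460 passed the filter on low counts. Gene expression was compared with voom and limma over all 15 SUM159 libraries, and a gene is called here where TREAT put its change beyond a log2 fold change of 1 (2-fold) at a Benjamini-Hochberg adjusted p under 0.05. TREAT called 1000 genes, 6.47% of those tested, with 551 higher in run 2 (3.56%) and 449 lower (2.90%). Without replicate 1 of run 1 it called 366 higher and 383 lower, so that the balance turned, and with upper quartile scaling 628 and 393. The moderated test of the same fit, against no change at all, passed 9098 genes (58.8%), with 4464 higher (28.9%) and 4634 lower (30.0%), or 5051 and 4090 with upper quartile scaling. Counts for the gene lists below stand against these shares, also where the shares are not repeated. The 3 values of each run did not overlap for 10115 genes (65.4%). The median log2 fold change of all genes tested was -0.01, and the middle portion between the quartiles ran from -0.51 to 0.55. A 3 against 3 exact permutation test of a single gene cannot give a p under 0.10.

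**Figure D1:**
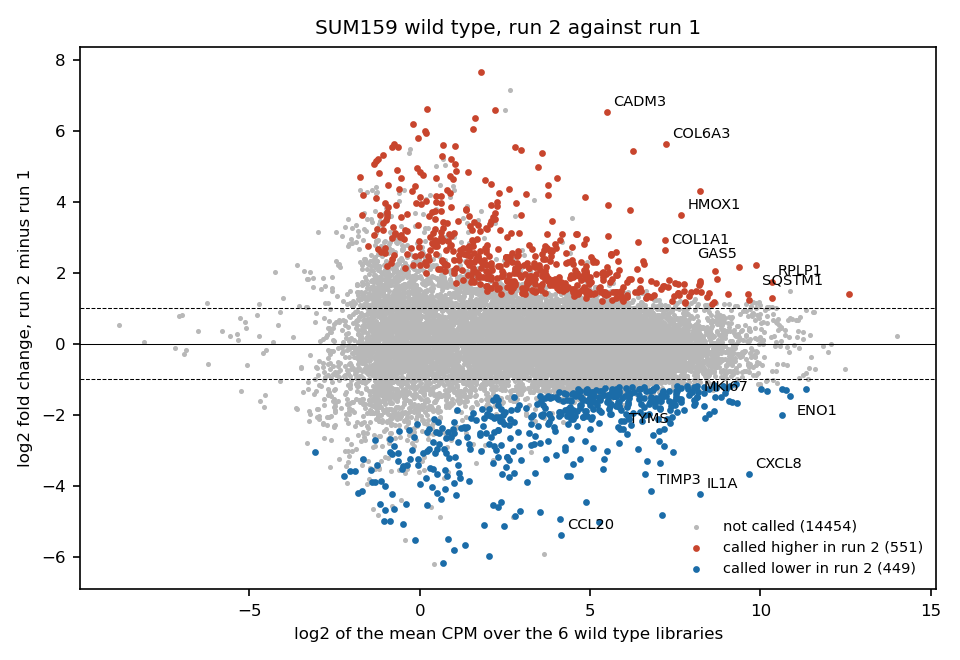
Each point is 1 gene tested; the x axis is the log2 of its mean CPM over the 6 wild type libraries and the y axis its log2 fold change, run 2 minus run 1, with dashed lines at 1 and -1, and genes at 0 in all 6 libraries are not drawn. Red marks the 551 genes called higher and blue the 449 called lower by TREAT, and calls were made among low and abundant genes, with CXCL8 (log2 fold change -3.68) and ENO1 (-1.47) among the abundant genes that were lower.

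Changes differed with the base composition and length of transcripts. The genes were put into 5 bins of equal size by GC content of the canonical transcript, and the median log2 fold change was -0.26, -0.18, -0.07, 0.11 and 0.51 from the lowest to the highest bin. TREAT called 0.913% of the lowest bin and 9.10% of the highest bin higher in run 2. Over bins by transcript length the median ran from 0.21 in the shortest to -0.18 in the longest. The mean GC content weighted by counts was 47.5% to 47.7% in run 1 wild type, 47.6% to 48.2% in the other run 1 SUM159 libraries, 48.5% to 48.6% in run 2 SUM159 and 48.0% to 48.5% in MDA-MB-231. With the trend on GC content and length removed from the fold changes, TREAT called 832 genes, 413 higher and 419 lower. The part of this trend in each result was not tested, and corrected values are given beside some of the lists only. Medians of lists without them moved too, such as histones (-1.59 to -1.99), FOXO targets (0.25 to 0.48) and epithelial junction genes (-0.33 to -0.53).

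**Figure D2:**
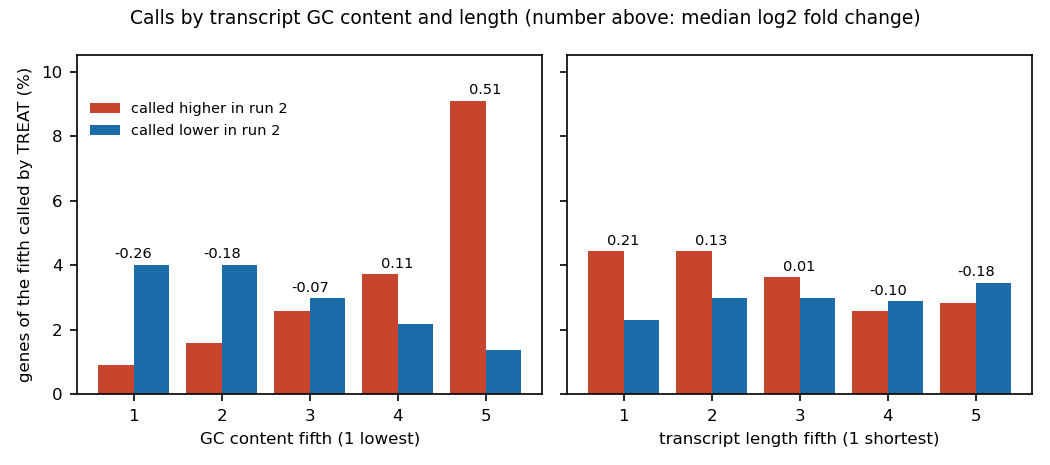
Bars are the share of genes in each of 5 equal bins that TREAT called higher (red) or lower (blue) in run 2, by GC content (left, 1 is the lowest) and length (right, 1 is the shortest) of the canonical transcript, and the number above each pair is the bin's median log2 fold change. Calls of higher genes climbed with GC content to 9.10% in the top bin, where 1.37% were called lower.

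The 15 largest rises above 5 CPM were each low in run 1. CADM3, an immunoglobulin-type cell adhesion molecule, was at 0.937, 1.66 and 0.504 CPM in the run 1 libraries and at 89.3, 93.0 and 83.6 CPM in those of run 2 (log2 fold change 6.53, SE 0.431, TREAT adjusted p = 6.6e-07). PKNOX2, a homeobox transcription factor, was at 3.85, 3.14 and 3.35 CPM and then 150, 149 and 149 CPM, a log2 fold change of 5.43 (SE 0.115). Both genes were low in run 1 and well expressed in each run 2 library. Cancer-testis genes were among them, with XAGE2 at 0.644 ± 0.0427 and 21.3 ± 1.11 CPM and SPANXB1 at 0.108 ± 0.0963 and 9.24 ± 0.691 CPM, although both belong to families of near-identical copies. TMEM59L was at or under 3 counts in every run 1 library, and its ratio of 433 has a 95% counting interval of 77.1 to 17141. ANXA3 was likewise at the floor, with a ratio of 72.2 (30.6 to 224). The other genes of these 15 were GFRA1, XYLT1, PCOLCE, MCAM, HOXB9, COL6A2, COL6A3, RELN and FOS.

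Of the 15 largest falls, IL1A and CCL20 are described below with the other cytokines. ANXA8, an annexin of basal epithelium, was at 279, 266 and 261 CPM in run 1 and 9.06, 9.42 and 9.71 CPM in run 2 (log2 fold change -4.83, SE 0.103). Its near-identical copy ANXA8L1 went from 74.2 ± 3.75 to 2.32 ± 0.705 CPM, and reads of the pair may be divided between them. MIR205HG, the host transcript of miR-205, was at 14.8 ± 0.884 CPM and then 0.590 ± 0.361 CPM. ARHGDIB had 33.6 ± 0.857 CPM in run 1 and 1.07 ± 0.108 CPM in run 2. The remaining genes of the 15 largest falls were SHROOM2, NHS, KRT6A, ANK1, EMP2, TIMP3, HTR7, ACKR4 and IGF2BP3. A separate list of identity genes joins markers present in the subtype, such as VIM, with markers low in it, such as CLDN4. Its counts therefore give no direction of identity. TP63, the transcription factor of basal epithelium, is in that list and fell less than the genes above. It was at 248, 261 and 253 CPM and then at 36.2, 32.9 and 33.5 CPM, with a log2 fold change of -2.89 (SE 0.0628). Of 15 tested genes of that list 9 were lower and 4 higher by the moderated test, against 30.0% and 28.9% of all genes. The median was -0.88.

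Cytokines and other NF-kB targets were lower in run 2. Of 42 listed genes, 37 were tested, and the moderated test passed 27 lower and 2 higher in run 2, against 30.0% and 28.9% of all genes. TREAT called 17 of the 37 lower (2.90% of all genes) and 2 higher. The median log2 fold change of the 37 was -1.56, and their summed level was 7693 to 7901 CPM in run 1 and 3252 to 3304 CPM in run 2. With the GC and length trend removed 29 were lower, 3 higher and the median was -1.67.

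Promoters of 4 of the called genes are shown because these genes were called lower. They are taken from the RefSeq table for GRCh38.p14, from 110 to 31 bases before the start. Capitals mark matches on either strand to GGNNNTTCC, a loose form of the site that NF-kB binds.
CXCL8: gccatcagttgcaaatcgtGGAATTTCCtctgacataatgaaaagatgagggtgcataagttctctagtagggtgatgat
CCL20: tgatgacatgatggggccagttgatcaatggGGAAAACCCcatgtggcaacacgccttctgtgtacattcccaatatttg
TNFAIP3: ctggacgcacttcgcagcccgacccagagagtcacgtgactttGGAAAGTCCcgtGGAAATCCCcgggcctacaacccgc
CXCL2: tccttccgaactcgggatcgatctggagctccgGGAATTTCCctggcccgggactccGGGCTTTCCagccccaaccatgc
The windows lie at chr4:73740459-73740538 on the plus strand for CXCL8, chr2:227813732-227813811 on the plus strand for CCL20, chr6:137867149-137867228 on the plus strand for TNFAIP3 and chr4:74099226-74099305 on the minus strand for CXCL2. The first match starts at -91 in CXCL8, -79 in CCL20, -67 in TNFAIP3 and -77 in CXCL2. Promoter windows ran from 250 bases before to 50 after the start, and the motif was looked for in the 250 bases before it. The motif was found in 19 of 25 list members with a window (76.0%), in 25% of the tested genes with one and in 17.1% of all 35116 windows. A match is a description of the letters and no evidence of binding, and the list was made of known targets.

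IL1A (ENSG00000115008, chr2:112773925-112784493 on the minus strand of GRCh38), the alarmin interleukin-1 alpha, was at 575, 580 and 571 CPM in run 1 and at 30.4, 30.3 and 30.9 CPM in run 2, a log2 fold change of -4.23 (SE 0.0664, TREAT adjusted p = 1.02e-12). CXCL8 (ENSG00000169429, chr4:73740519-73743716 on the plus strand), the neutrophil chemokine interleukin-8, was at 1490, 1505 and 1503 CPM and then at 119, 117 and 115 CPM, a log2 fold change of -3.68 (SE 0.0839). CCL20, a chemokine for CCR6-bearing cells, was at 35.1, 33.3 and 35.4 CPM and then at 1.07, 0.382 and 1.21 CPM (log2 fold change -5.39, SE 0.271). In each of these genes every run 2 library was far below every run 1 library, and the replicates of a run were close together. IL1B had 45.5, 51.8 and 45.2 CPM in run 1 and 4.88, 4.57 and 5.39 CPM in run 2. CXCL2 fell from 151 ± 1.94 to 33.1 ± 1.98 CPM and CXCL3 from 59.5 to 7.81 CPM, with the reservation that CXCL1, CXCL2 and CXCL3 are close paralogs. IL7R, PTGS2, LIF, CSF3, CCL2, EREG and PTX3 were called lower as well.

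The feedback inhibitors of NF-kB moved with the cytokines. TNFAIP3 (A20), a deubiquitinase that ends NF-kB signalling, was at 226, 237 and 256 CPM in run 1 and 29.6, 19 and 22.6 CPM in run 2 (log2 fold change -3.36, SE 0.148). NFKBIA, the inhibitor IkB-alpha, fell from 303 ± 12.7 to 103 ± 11.9 CPM (log2 fold change -1.56, TREAT adjusted p = 0.00277). ICAM1, an adhesion receptor for leukocytes, fell from 338 ± 29.3 to 91.8 ± 5.24 CPM, and the subunits NFKB1 and NFKB2 by 0.81 and 1.06 on the log2 scale. C3, the central complement protein and the most abundant member of the list, was at 1969 ± 68.3 and 1697 ± 21.2 CPM, a log2 fold change of -0.21 that passed the moderated test (adjusted p = 0.00265). SAA1, another acute phase gene, did not pass, with 96.2 and 102 CPM. The list thus held members that moved more than 10-fold beside abundant ones that hardly moved. LCN2 and MMP1 were the members called higher, at 2.75 ± 0.364 and 3.73 ± 0.178 CPM in run 2, and MMP1 is the gene named above for its level in MDA-MB-231.

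Mitotic genes were lower in run 2. All 49 listed genes were tested, and the moderated test passed 47 lower and 0 higher, against 30.0% and 28.9% of all genes. TREAT called 11 lower, and the median log2 fold change was -0.93. With the GC and length trend removed 45 were lower, 0 higher and the median was -0.73. Their summed level was 6855 to 7137 CPM in run 1 and 3477 to 3527 CPM in run 2. In bulk RNA, fewer cells in a phase and less RNA per cell in that phase cannot be told apart.

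MKI67, the proliferation marker Ki-67, was at 447, 413 and 391 CPM in run 1 and 160, 137 and 143 CPM in run 2 (log2 fold change -1.51, SE 0.0976, TREAT adjusted p = 0.00242). KIF11, the kinesin Eg5 that separates spindle poles, was at 140, 137 and 138 CPM and then 45.8, 41.4 and 41.3 CPM, the steepest fall of the list at -1.69 (SE 0.0560). PLK1, the polo-like kinase of mitotic entry, was at 138, 122 and 118 CPM and then 49.4, 46.0 and 45.0 CPM. None of these ranges overlapped, which was also so for 65.4% of all genes tested. The transcription factors of the program, MYBL2 and FOXM1, fell by 1.60 and 1.48 on the log2 scale, and TOP2A, which untangles DNA before division, from 717 ± 22.4 to 277 ± 8.44 CPM. CCNB1, cyclin B1, changed less, from 260 ± 2.04 to 152 ± 9.14 CPM. TTK, the checkpoint kinase MPS1, and the ubiquitin ligase gene G2E3 were the members that did not pass, and TTK was at 54.1 ± 2.64 and 55.0 ± 7.34 CPM.

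Promoters of 3 called mitotic genes are shown for the elements named above. They are from RefSeq on GRCh38.p14 and run from 110 bases before the start to the base before it. Capitals mark CCAAT and TTTGAA, the CHR element, on either strand (ATTGG and TTCAAA are their reverse complements), and the run of capitals in MKI67 that holds both letters TTTGAA and ATTGG is an overlap of the motifs.
KIF11: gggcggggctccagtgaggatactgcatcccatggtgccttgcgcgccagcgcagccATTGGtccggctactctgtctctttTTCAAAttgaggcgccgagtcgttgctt
PLK1: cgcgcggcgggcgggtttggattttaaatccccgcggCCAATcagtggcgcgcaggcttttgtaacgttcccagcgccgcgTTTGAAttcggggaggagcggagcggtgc
MKI67: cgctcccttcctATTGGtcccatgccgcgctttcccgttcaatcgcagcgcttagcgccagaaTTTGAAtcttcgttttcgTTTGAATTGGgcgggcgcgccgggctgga
KIF11 lies at chr10:92593020-92593129 on the plus strand, PLK1 at chr16:23678779-23678888 on the plus strand and MKI67 at chr10:128126424-128126533 on the minus strand. In the 250 bases before the start, CCAAT was found in 33 of 41 mitotic genes with a window (80.5%, against 41.7% of tested genes and 32.0% of all windows). TTTGAA was found in 22 (53.7%, against 12.3% and 13.3%). Both were present in 20 of the 41 (48.8%; 4.85% and 4.69%). These are known features of mitotic promoters, and a match is a description only.

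Replication genes were lower too, but with members at the same level in both runs. Of 44 genes tested, 36 were lower and 2 higher by the moderated test, against 30.0% and 28.9% of all genes. TREAT called 6 lower and 0 higher, against 2.90% and 3.56%, and the median was -0.89 (-0.82 with the trend removed). TYMS, thymidylate synthase, was at 109, 105 and 101 CPM in run 1 and at 17.6, 22.9 and 19.7 CPM in run 2 (log2 fold change -2.40, SE 0.121, TREAT adjusted p = 1.86e-06). LIG1, the ligase of Okazaki fragments, had 49.9, 52.5 and 57.2 CPM and then 13.3, 10.4 and 13.3 CPM. In both genes the runs were far apart, and RRM1 and RRM2, the subunits of ribonucleotide reductase, were called as well. Of the MCM helicase genes, MCM4, MCM6, MCM3, MCM7 and MCM5 fell by 0.53 to 1.08 on the log2 scale, while MCM2 was at 145 ± 10.3 and 150 ± 13.3 CPM and did not pass. E2F1, the transcription factor of the G1/S program, was at 28.7 ± 0.528 and 28.7 ± 2.12 CPM. CCNE1, cyclin E1, was higher in run 2 at 9.61 CPM, from 4.85 CPM.

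The regulators of the cycle did not move as 1 group. Of 15 tested cyclin D, CDK and inhibitor genes, 9 were lower and 4 higher by the moderated test, with a median of -0.48 (-0.28 with the GC and length trend removed). CCND1, cyclin D1, was at 291, 294 and 316 CPM in run 1 and 463, 471 and 443 CPM in run 2, a log2 fold change of 0.61 (moderated adjusted p = 1.21e-05). CDK2 and CDK6 fell by 1.27 and 1.12 on the log2 scale and CDK4 did not pass, at 225 and 217 CPM. CDKN1A (p21) was at 92.2 ± 3.51 and 101 ± 1.04 CPM, and its small rise of 0.14 turned to -0.064 with the GC and length trend removed. CDKN2A and CDKN2B, the INK4 inhibitors, were too low to test. Of 25 p53 targets 14 were lower and 6 higher, against 30.0% and 28.9% of all genes, with a median of -0.46. MDM2 fell by 1.05, and GDF15 was at 25.8 ± 3.63 and 71.8 ± 8.74 CPM, a log2 fold change of 1.48. MYC was at 892 ± 44.3 and 1190 ± 15.2 CPM, higher by 0.42 on the log2 scale.

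Of 30 tested immediate-early genes, 12 were higher and 10 lower by the moderated test, near the 28.9% and 30.0% of all genes. FOS, the AP-1 subunit, was at 0.800, 1.02 and 1.89 CPM in run 1 and 26.9, 30.2 and 21.5 CPM in run 2 (log2 fold change 4.47, SE 0.513). EGR1, JUN, JUND and DUSP1 were higher by 0.34 to 0.71. PHLDA1, a target of ERK signalling, was at 268 ± 12 and 56.8 ± 0.859 CPM (log2 fold change -2.23), and FOSL1 fell by 1.01 and DUSP6 by 0.90. EGR2 was called lower, at 3.68 ± 1.21 and 0.427 ± 0.308 CPM.

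Ribosomal protein mRNAs were higher in run 2. All 78 listed genes were tested, and the moderated test passed 72 higher and 1 lower, against 28.9% and 30.0% of all genes. The median log2 fold change was 0.74 and TREAT called 5 higher and 0 lower (3.56% of all genes were called higher), so most of the changes were not shown to exceed 2-fold. Together they took 6.17% to 6.36% of the counts in run 1 and 10.2% to 10.6% in run 2. In the other SUM159 libraries of run 1 that share was 8.74% to 9.85%, and in MDA-MB-231 it was 4.79% to 6.33%. With the trend on GC content and length removed, 69 were higher, 3 lower and the median was 0.66. Many of these genes have processed pseudogenes that share their reads.

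RPLP1, of the ribosomal stalk, was at 476, 534 and 787 CPM in run 1 and 1904, 1952 and 2067 CPM in run 2 (log2 fold change 1.76, SE 0.160, TREAT adjusted p = 0.00468). RPS21 was at 191, 178 and 214 CPM and then 509, 514 and 550 CPM. RPL18 went from 486 ± 36.2 to 1152 ± 41.0 CPM. RPLP1 was uneven among the run 1 libraries, although its highest value there lay far below the lowest of run 2. RPL7 was the member that fell, at 1172 ± 12.9 and 813 ± 20.2 CPM, and RPL11, RPL17, RPL19, RPL41 and RPS20 did not pass. Genes of ribosome assembly did not follow: of 30 tested, 17 were lower and 7 higher, against 30.0% and 28.9% of all genes. TREAT called 0, and NCL, nucleolin, was at 1936 ± 82.7 and 1304 ± 24.0 CPM.

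Long non-coding RNAs whose introns hold snoRNAs went both ways. GAS5 was at 242, 226 and 252 CPM in run 1 and 1126, 1042 and 1105 CPM in run 2 (log2 fold change 2.18, SE 0.0899, TREAT adjusted p = 5e-07). ZFAS1 was at 163, 153 and 160 CPM and then 651, 644 and 677 CPM, a log2 fold change of 2.05. SNHG12 and SNHG5 were higher by 1.58 and 0.90. SNHG1 went the other way, from 350 ± 27.7 to 129 ± 15.1 CPM (log2 fold change -1.44). Of the nuclear RNAs, MALAT1 rose from 27.2 ± 1.01 to 52.2 ± 5.78 CPM and NEAT1 did not pass, at 140 and 150 CPM. Spliced GAS5 and its relatives start with the same kind of tract as ribosomal protein mRNAs, and the RefSeq start sites of 6 genes that rose are shown for it, from 10 bases before the start to 20 after it. Capitals mark the unbroken run of pyrimidines from the first transcribed base.
RPLP1: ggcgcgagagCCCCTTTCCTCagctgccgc
RPS21: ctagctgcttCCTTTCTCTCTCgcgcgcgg
RPL18: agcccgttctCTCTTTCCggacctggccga
ZFAS1: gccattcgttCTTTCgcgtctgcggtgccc
SNHG5: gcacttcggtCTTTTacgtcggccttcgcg
SNHG12: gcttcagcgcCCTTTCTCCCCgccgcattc
These lie on GRCh38.p14 at chr15:69452808-69452837 (plus), chr20:62387093-62387122 (plus), chr19:48619159-48619188 (minus), chr20:49278632-49278661 (plus), chr6:85678714-85678743 (minus) and chr1:28581854-28581883 (minus), in that order. The runs are 11, 12, 8, 5, 5 and 11 bases long. A C at the start followed by at least 4 pyrimidines was found in 46 of 62 ribosomal protein genes with a window (74.2%), 7.36% of tested genes and 4.07% of all windows. The genes shown were picked because they rose. The starts of GAS5 and of SNHG1 and RPL7, which fell, are not shown. Whether the tract went with the change was not tested.

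**Figure D3:**
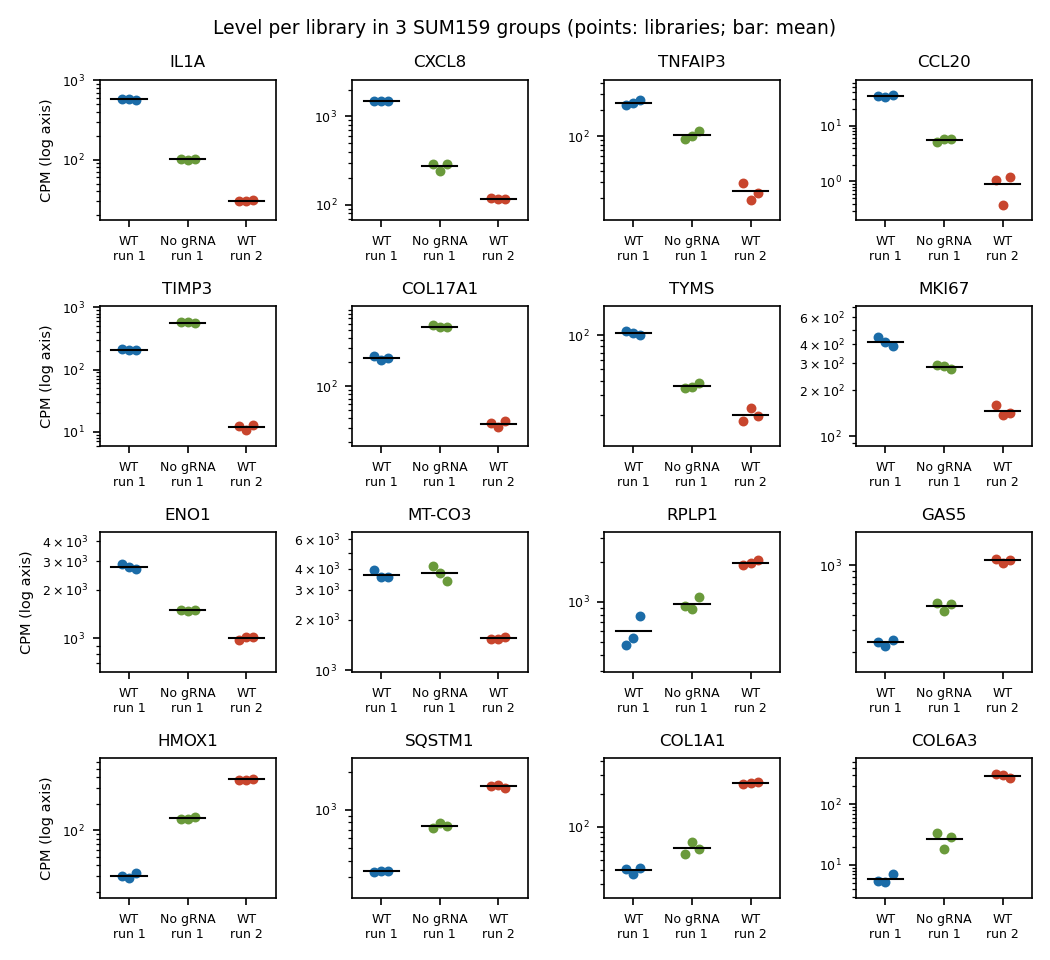
Each point is 1 library's CPM on a log axis, for wild type run 1 (blue), No gRNA run 1 (green) and wild type run 2 (red), with a bar at the mean of the 3 libraries. Run 2 was below run 1 wild type for IL1A, CXCL8, TNFAIP3, CCL20, TIMP3, COL17A1, TYMS, MKI67, ENO1 and MT-CO3 and above it for RPLP1, GAS5, HMOX1, SQSTM1, COL1A1 and COL6A3, and for 13 of the 16 genes the No gRNA mean lay between them.

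Genes of the unfolded protein response were higher in run 2. Of 25 tested, 20 were higher and 2 lower by the moderated test, against 28.9% and 30.0% of all genes. The median log2 fold change was 0.58 (20, 2 and 0.66 with the trend removed). TREAT called 2 higher, against 3.56% of all genes. HSPA5, the chaperone BiP of the endoplasmic reticulum, was at 495, 491 and 500 CPM in run 1 and 950, 951 and 949 CPM in run 2 (log2 fold change 0.94, moderated adjusted p = 6.43e-12). HYOU1, a co-chaperone of BiP, was at 150, 136 and 132 CPM and then 460, 457 and 451 CPM (log2 fold change 1.71). SDF2L1 was at 5.57 ± 0.590 and 26.5 ± 0.290 CPM. HSP90B1 and CALR, chaperones of the same compartment, did not pass, and the sensor gene ERN1 and its target XBP1 fell by 1.12 and 0.45 on the log2 scale.

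Cytosolic chaperones and amino acid response genes had no common direction. Of 20 tested heat shock genes 12 were lower and 5 higher, against 30.0% and 28.9% of all genes. HSP90AA1 was at 1471, 1507 and 1443 CPM and then 636, 596 and 617 CPM (log2 fold change -1.26), while HSPA8 rose from 548 ± 40.2 to 1158 ± 50.5 CPM. HSPA1A was at 0 in all 6 libraries, and it has a near-identical copy. Of 44 tested ATF4 genes 16 were higher and 20 lower, against 28.9% and 30.0% of all genes. SESN2 fell from 144 ± 3.69 to 57.6 ± 1.62 CPM and DDIT3 (CHOP) by 1.24 on the log2 scale, while TRIB3, an inhibitor of AKT, rose from 291 ± 13.4 to 775 ± 18.9 CPM. ASNS, asparagine synthetase, did not pass, at 351 and 381 CPM.

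The NRF2 list held both large rises and large falls. Of 30 tested genes 8 were higher and 16 lower by the moderated test, against 28.9% and 30.0% of all genes. TREAT called 3 higher and 5 lower, against 3.56% and 2.90%, and the median was -0.24. HMOX1, haem oxygenase 1, was at 30.0, 28.9 and 32.8 CPM in run 1 and 376, 373 and 384 CPM in run 2 (log2 fold change 3.63, SE 0.0617, TREAT adjusted p = 3.07e-12). FTH1, the ferritin heavy chain, was at 3344, 3400 and 3513 CPM and then 8938, 8913 and 9233 CPM, with processed pseudogenes that can share its reads. The third gene called higher was ABCC3, a transporter of conjugated compounds. SLC7A11, the cystine importer, was at 947, 1003 and 949 CPM and then 308, 314 and 290 CPM (log2 fold change -1.67). NQO1 fell from 285 ± 6.03 to 140 ± 8.67 CPM and AKR1C2 from 209 ± 3.94 to 59.1 ± 1.57 CPM, the last with close paralogs. NFE2L2, which encodes NRF2, fell by 0.76 on the log2 scale. GCLC, GSR and KEAP1 did not pass.

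Interferon-stimulated and hypoxia genes were mixed. Of 49 tested interferon-stimulated genes 13 were higher and 18 lower, near the 28.9% and 30.0% of all genes, with a median of -0.25 (-0.12 with the GC and length trend removed). ISG15 and PSMB8 were called higher, at 8.38 ± 0.632 and 10.6 ± 0.991 CPM in run 2, and OAS3 was called lower, from 58.0 ± 6.77 to 20.1 ± 1.83 CPM. Of 30 hypoxia genes 11 were higher and 6 lower, and the median of 0.05 was -0.03 without replicate 1 of run 2. VEGFA, SLC2A1 and CA9 did not pass. STC1, stanniocalcin, was at 29.0 ± 1.18 and 3.35 ± 0.761 CPM and EGLN1, a prolyl hydroxylase, at 202 ± 3.84 and 65.7 ± 0.918 CPM.

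Hormone-linked genes were examined because the medium holds insulin and hydrocortisone. Of 24 tested glucocorticoid response genes 10 were higher and 9 lower. KLF9 and ZBTB16, direct targets of the glucocorticoid receptor, rose from 240 ± 4.36 to 523 ± 6.58 CPM and from 29.1 ± 4.90 to 79.2 ± 3.31 CPM. FKBP5, PER1 and TSC22D3, also direct targets, had log2 fold changes of -0.40, -0.03 and -0.15, of which that of PER1 did not pass. The receptor gene NR3C1 fell from 365 ± 1.33 to 196 ± 23.6 CPM. Of 22 tested FOXO targets, which insulin holds down through AKT, 10 were higher and 8 lower, against 28.9% and 30.0% of all genes. FBXO32 was at 3.91 ± 0.167 and 24.2 ± 2.45 CPM and KLHL24 at 21.9 ± 2.94 and 92.9 ± 13.9 CPM. SESN3 fell from 11.3 ± 0.223 to 4.29 ± 1.02 CPM, and GADD45A and CDKN1B fell by 0.74 and 0.70 on the log2 scale. The zinc-responsive metallothionein MT1E rose from 4.79 ± 0.731 to 21.3 ± 2.44 CPM while MT2A fell from 691 ± 102 to 468 ± 15.3 CPM, within a family of similar genes.

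Of 34 tested interstitial collagens and matrix glycoproteins 17 were higher, 6 lower and 11 did not pass the moderated test, against 28.9% higher and 30.0% lower of all genes. TREAT called 8 higher and 2 lower, against 3.56% and 2.90%, and the median was 0.45. COL6A3 (ENSG00000163359, chr2:237324003-237414328 on the minus strand), a chain of collagen VI, was at 5.54, 5.20 and 7.18 CPM in run 1 and 308, 299 and 273 CPM in run 2 (log2 fold change 5.63, SE 0.305, TREAT adjusted p = 1.09e-07). COL1A1, of type I collagen, was at 41.2, 36.6 and 42.3 CPM and then 246, 254 and 255 CPM (log2 fold change 2.66). COL5A1 was at 36.6, 24.2 and 44.3 CPM and then 269, 245 and 266 CPM (log2 fold change 2.94). The partner chain COL1A2 was too low to test, and COL5A2 did not pass, at 38 and 27.8 CPM, so the chains of type I and type V collagen did not move together. FN1, fibronectin, was higher by 0.26 and TGFBI by 0.68. TNC, tenascin C, fell from 672 ± 48.8 to 241 ± 32.0 CPM.

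Of 22 tested basement membrane and hemidesmosome genes 13 were lower and 5 higher by the moderated test, against 30.0% and 28.9% of all genes. The median was -0.44. With the GC and length trend removed 16 were lower, 4 higher and the median was -0.73. COL17A1, the transmembrane collagen of hemidesmosomes, was at 240, 211 and 226 CPM in run 1 and 34.7, 31.2 and 36.4 CPM in run 2 (log2 fold change -2.73, SE 0.0756). The laminin chain genes LAMA3 and LAMB3 fell by 0.99 and 1.06 on the log2 scale, without a TREAT call. ITGA6, which pairs with ITGB4 to bind laminin, was at 548, 518 and 536 CPM and then 138, 135 and 107 CPM (log2 fold change -2.09), while ITGB4 itself went from 228 to 201 CPM (log2 fold change -0.18). LAMB2 was called higher, at 104 ± 10.0 and 282 ± 9.46 CPM.

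Integrin genes went both ways. Of 15 tested, 5 were higher and 6 lower, with a median of -0.05 that was 0.03 with upper quartile scaling and 0.01 with library totals. ITGA10 and ITGA11, the collagen-binding alpha chains, were called higher. ITGA10 was at 5.75, 6.49 and 4.96 CPM in run 1 and 32.0, 35.2 and 34.4 CPM in run 2, and ITGA11 at 7.94 ± 3.12 and 37.2 ± 13.1 CPM. ITGA2, which also binds collagen and is far more abundant, was called lower, at 810 ± 17.9 and 268 ± 8.96 CPM. ITGB1 fell by 0.52 and ITGA3 and ITGB5 did not pass. Among proteases and inhibitors, TIMP3, a matrix-bound inhibitor of metalloproteinases, was at 215, 205 and 210 CPM and then 12.2, 10.8 and 12.7 CPM (log2 fold change -4.14, SE 0.0830), and PLAU, urokinase, at 188, 184 and 185 CPM and then 18.6, 21.3 and 16.7 CPM (log2 fold change -3.30). Most members of that list that passed went the other way. Of 21 tested 10 were higher and 4 lower, against 28.9% and 30.0% of all genes, with a median of 0.26. Their summed level was 3477 to 3536 CPM in run 1 and 3909 to 4040 CPM in run 2.

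Of 49 listed epithelial junction and marker genes, 37 were tested, and by the moderated test 17 were lower, 7 higher and 13 did not pass, against 30.0% lower and 28.9% higher of all genes. DSP, desmoplakin, was at 38.6, 35.9 and 36.7 CPM in run 1 and 8.23, 5.55 and 4.17 CPM in run 2 (log2 fold change -2.68). PERP, a desmosomal membrane protein, fell from 162 to 50.0 CPM. The basal keratins KRT6A, with paralogs, and KRT5 were at 13.2 ± 4.85 and 1.17 ± 0.103 CPM in run 1 and at 0.755 ± 0.996 and 0.0190 ± 0.0164 CPM in run 2. KRT80 rose from 136 ± 1.56 to 464 ± 4.35 CPM, and KRT81, near-absent in run 1, reached 3.94 ± 0.198 CPM. KRT7 was at 989 and 995 CPM and did not pass. KRT18, of simple epithelium, fell from 240 ± 4.74 to 151 ± 3.64 CPM, and the basal keratin KRT14, under 1 CPM in all 6 libraries, did not pass.

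Of 22 tested cadherin and catenin genes, 11 were lower and 5 higher by the moderated test, against 30.0% and 28.9% of all genes. CDH2, N-cadherin, rose from 94.4 ± 2.38 to 131 ± 3.48 CPM (log2 fold change 0.48), CDH13 from 137 ± 3.78 to 307 ± 15.2 CPM (log2 fold change 1.16, TREAT adjusted p = 0.0397), and FAT1 fell from 307 ± 13.7 to 101 ± 23.9 CPM. Of 28 cytoskeleton genes 15 were lower and 2 higher, against the same shares. VCL, vinculin of focal adhesions, fell from 124 ± 2.80 to 25.2 ± 1.39 CPM and ACTB, beta-actin, from 3890 ± 382 to 2368 ± 21.6 CPM. MYH9, TLN1 and SRF did not pass.

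Among mesenchymal regulators, SNAI2 (Slug) fell from 106 ± 3.69 to 26.6 ± 1.25 CPM (log2 fold change -1.99) and ZEB2 by 1.11 on the log2 scale, while SNAI1 (Snail) rose from 1.89 to 5.82 CPM. TWIST1 did not pass, at 2.83 and 2.99 CPM. ZEB1, the target of the series, was at 83.0, 74.4 and 77.6 CPM in run 1 and 77.8, 74.8 and 76.1 CPM in run 2 (log2 fold change -0.04, SE 0.0816, moderated adjusted p = 0.708). The runs overlapped for ZEB1, and with the GC and length trend removed its estimate was 0.30 and passed the moderated test (adjusted p = 0.00504). Its antisense neighbour ZEB1-AS1, with which reads may be shared, was at 9.38 ± 0.889 and 11.6 ± 2.41 CPM. CD44, a stem-like surface marker of the subtype, fell by 1.15.

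Signalling genes of the WNT and NOTCH pathways had 14 higher and 5 lower of 27 tested by the moderated test, against 28.9% and 30.0% of all genes. TREAT called 6 higher and 3 lower, against 3.56% and 2.90%, and the median was 0.45. HES1, a NOTCH target, was at 43.2, 43.7 and 46.7 CPM in run 1 and 128, 131 and 137 CPM in run 2 (log2 fold change 1.57). NRARP and the receptor gene NOTCH3 were also called higher, at 13.5 ± 0.877 and 11.4 ± 1.39 CPM in run 2. JAG1, a NOTCH ligand, was at 201, 212 and 203 CPM and then 42.3, 59.5 and 41.0 CPM (log2 fold change -2.13), and the ligand DLL1 was called lower too. WNT5A, FZD2 and NKD2 were called higher but reached at most 16.5 CPM in any library. Of 26 TGF-beta genes 12 were lower and 7 higher. TGFB2 rose from 3.03 ± 0.666 to 14.9 ± 3.27 CPM and LTBP4 from 14.5 ± 1.70 to 84.3 ± 9.94 CPM, INHBA fell to 0.134 ± 0.0790 CPM, and TGFB1 and TGFBR1 did not pass. Of 25 YAP targets 9 were higher and 11 lower. CCN1 rose from 77.2 ± 0.732 to 236 ± 2.08 CPM, and F3, tissue factor, fell from 46.4 ± 1.59 to 15.9 ± 3.32 CPM.

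Glycolysis genes were lower in run 2. Of 20 tested 14 were lower and 2 higher by the moderated test, against 30.0% and 28.9% of all genes. TREAT called 3 lower and 0 higher, against 2.90% and 3.56%, and the median was -0.59. ENO1, enolase, was at 2877, 2776 and 2684 CPM in run 1 and 974, 1015 and 1022 CPM in run 2 (log2 fold change -1.47, SE 0.0367, TREAT adjusted p = 6.6e-07). LDHA, lactate dehydrogenase A, was at 2324, 2293 and 2221 CPM and then 906, 949 and 952 CPM (log2 fold change -1.28). PFKP, a phosphofructokinase, fell from 271 ± 7.20 to 107 ± 6.92 CPM. GAPDH moved little, from 4406 ± 40.5 to 3757 ± 84.1 CPM (log2 fold change -0.23), and the glucose transporter SLC2A1 did not pass, at 203 and 211 CPM. The summed level of the 20 genes was 18035 to 18319 CPM in run 1 and 10742 to 10905 CPM in run 2.

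Of 60 nuclear genes of oxidative phosphorylation 32 were higher, 13 lower and 15 did not pass, against 28.9% and 30.0% of all genes. TREAT called 0, and the median was 0.20. With the trend removed 29 were higher, 16 lower and the median was 0.15. NDUFS7, a complex I subunit, was at 15.4, 16.3 and 23.3 CPM in run 1 and 55.9, 53 and 54.9 CPM in run 2 (log2 fold change 1.60, and 0.58 with the GC and length trend removed). NDUFS1, of the same complex, fell by 0.79 on the log2 scale. All 13 mRNAs of the mitochondrial genome were lower by the moderated test, TREAT called 4 of them, and the median was -0.99. MT-CO3, of cytochrome oxidase, was at 3933, 3594 and 3562 CPM and then 1533, 1534 and 1571 CPM. These 13 took 2.62% to 3.01% of counts in run 1, 1.52% to 1.55% in run 2, 2.84% to 3.70% in the other SUM159 libraries of run 1 and 1.01% to 2.03% in MDA-MB-231. The share of mitochondrial mRNA was lower in all 15 libraries of run 2 than in all 12 of run 1, but 12 of those 15 are MDA-MB-231. For these 12, run and cell line cannot be told apart.

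TCA cycle genes had 15 lower and 9 higher of 29, against 30.0% and 28.9% of all genes, with FH, fumarase, at 143 ± 12.9 and 49.4 ± 3.85 CPM. Of 28 genes of serine, folate and nucleotide synthesis 12 were lower and 6 higher, and TYMS, described above, was called lower. Of 25 cholesterol synthesis genes 8 were lower and 5 higher, with HMGCS1 not passing and PMVK and TM7SF2 called higher. Of 20 fatty acid genes 10 were lower and 5 higher, TREAT called 0, and the rise of 0.56 for FASN became -0.093 with the GC and length trend removed. Cholesterol efflux and LXR targets had 6 higher and 4 lower of 12.

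Lysosome and autophagy genes had 14 higher and 9 lower of 32 tested, against 28.9% and 30.0% of all genes. Their summed level was 3318 to 3338 CPM in run 1 and 5937 to 6024 CPM in run 2. SQSTM1, the autophagy receptor p62, was at 331 ± 1.46 CPM in run 1 and 1541, 1565 and 1495 CPM in run 2 (log2 fold change 2.21, SE 0.0440, TREAT adjusted p = 2.08e-10). PSAP, the precursor of the saposins, was at 880, 872 and 823 CPM and then 1713, 1759 and 1791 CPM, and WIPI1, of the autophagosome, at 11.9 ± 1.18 and 47.5 ± 1.02 CPM. SQSTM1 and PSAP were the members whose CPM rose most. LAMP2 and ATP6V0D1 fell by 0.75 and 0.76 on the log2 scale, and the median of the list was 0.10 (0.20 with the GC and length trend removed).

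The composition of the libraries differed as well, and the library kits are not given in the sources used here. Replication-dependent histone mRNAs, which lack a poly(A) tail, summed to 49.2 to 60.9 CPM in run 1 and 18 to 20.8 CPM in run 2. Of 56 such genes with values, 21 were tested, and 16 were lower and 2 higher, against 30.0% and 28.9% of all genes. Copies of these histone genes are near-identical. H2AC6 was at 8.02 ± 0.801 and 0.785 ± 0.279 CPM. Long non-coding RNAs took 1.09% to 1.35% of counts in run 1 wild type and 1.76% to 1.82% in run 2 wild type. Their share was 1.27% to 1.61% in the other SUM159 libraries of run 1 and 1.18% to 2.39% in MDA-MB-231. The 100 most abundant genes took 19% to 19.3% in run 1 wild type and 20.7% to 21.1% in run 2 wild type. Histones took 0.0049% to 0.0061% of counts in run 1 wild type and 0.0055% to 0.0066% in the other SUM159 libraries of run 1. Their share was 0.0019% to 0.0022% in run 2 wild type and 0.0154% to 0.0612% in MDA-MB-231 of run 2. The top genes took 22.4% to 23.4% in the other SUM159 libraries of run 1 and 16.4% to 18% in MDA-MB-231. For MDA-MB-231, run and cell line cannot be told apart. The non-polyadenylated RN7SK, RMRP and RPPH1 did not pass. The part of these values in the growth and ribosome results was not tested.

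A list of genes that the study's paper names in connection with ZEB1 was compiled for this comparison. It holds genes reported after ZEB1 silencing, genes from its chromatin assays and EMT factors that were only assayed, such as ZEB2, KLF4, OVOL1, OVOL2 and GRHL2. Of 26 with values, 22 were tested, and 13 were lower and 2 higher by the moderated test, against 30.0% and 28.9% of all genes. TREAT called 6 lower, EHF, IL1B, COL17A1, DSP, SNAI2 and CSF3, against 2.90% of all genes. ZEB2 and KLF4 are among the 13. ESRP1, an epithelial splicing factor, was at 0.462 ± 0.299 and 3.45 ± 0.390 CPM (log2 fold change 3.03, moderated adjusted p = 0.00145, TREAT adjusted p = 0.066). OVOL1, OVOL2, GRHL2 and CTNNA3 were too low to test.

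Against the No gRNA cells of run 1, TREAT called 406 genes (2.63%), with 109 higher (0.705%) and 297 lower (1.92%) in run 2 wild type. Both comparisons use the same run 2 libraries, so their values are set side by side and not counted as repeats. The median log2 fold change of the mitotic list was -0.93 against wild type and -0.81 against No gRNA, that of the inflammatory list -1.56 and -0.80, and that of the mitochondrial mRNAs -0.99 and -1.19. The replication list differed more between the references, at -0.89 and 0.07, as did ribosomal proteins at 0.74 and 0.27, the unfolded protein response at 0.58 and 0.06, and interstitial matrix genes at 0.45 and -0.11. For glycolysis the medians were -0.59 and -0.22, and for interferon-stimulated genes -0.25 and -0.80.

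Single genes also differed in where the No gRNA cells lay. IL1A was at 103, 98.7 and 101 CPM in No gRNA cells, below run 1 wild type and above run 2, and its log2 fold change in run 2 was -1.72 against No gRNA. TYMS was at 34.6, 35.3 and 38.4 CPM there, and its difference of -0.86 from run 2 was not called. HSPA5 was at 1018, 1033 and 1037 CPM, above both wild type groups. TIMP3 was at 574, 575 and 558 CPM and COL17A1 at 573, 542 and 547 CPM, so that both were higher in No gRNA cells than in either wild type group and their falls to run 2 were larger, at -5.58 and -4.02. PTX3 was called lower in run 2 than in run 1 wild type and higher than in No gRNA (log2 fold changes -1.80 and 1.66), and LCN2 the reverse (2.29 and -2.21). IFIT2 and IFIT3, interferon targets, were at 26 and 33.8 CPM in No gRNA cells and under 3 CPM in each of the 6 wild type libraries.

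**Figure D4:**
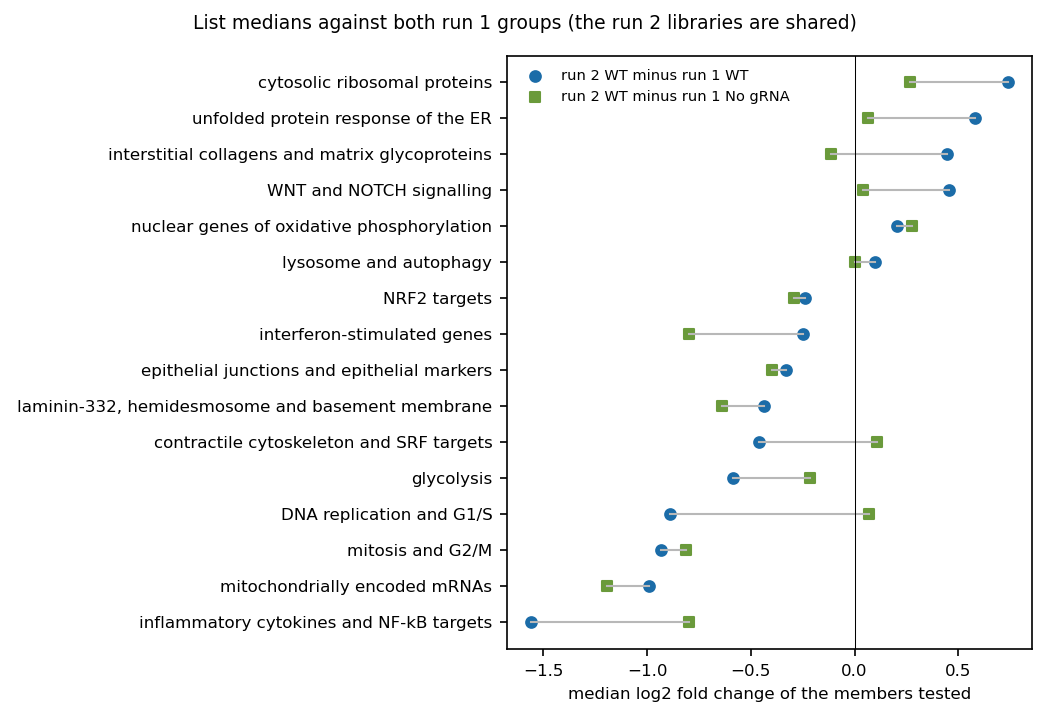
Each row is a gene list; circles give the median log2 fold change of its tested members for run 2 wild type minus run 1 wild type and squares that for run 2 wild type minus run 1 No gRNA, and the run 2 libraries are shared by both. Circles and squares lie close for mitosis (-0.93 and -0.81) and apart for DNA replication (-0.89 and 0.07) and contractile genes (-0.46 and 0.11).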

How the data were processed

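The 6 SUM159 wild type libraries belong to 2 runs. The authors quantified reads with Salmon (GRCh38), imported them to genes with tximport and deposited estimated counts per gene on the lengthScaledTPM scale, in 1 table for both runs. The Salmon version, index and strandedness are not given in the sources used here, so reads of overlapping, antisense and paralogous genes may be shared. The estimated counts need not be whole.

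Genes were kept with filterByExpr (minimum count 10), scaled by TMM and fitted with voom (offset 0.5) and limma over the 15 SUM159 libraries in 5 groups (10 residual degrees of freedom), so that all groups share 1 estimate of the spread. TREAT tested changes beyond a log2 fold change of 1, and the moderated test changes from 0, with Benjamini-Hochberg adjustment over all 15460 genes tested at 0.05. CPM values are TMM scaled. Gene names, GC content and length came from GENCODE 44 (56347 of 57165 genes matched), and promoter sequences from RefSeq. R 4.3.3, limma 3.58.1, edgeR 4.0.16, DESeq2 1.42.0 and Python 3.11.15 were used, and the code was tested on simulated data. Counts were rounded for edgeR and DESeq2.

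The comparison and the 42 gene lists were chosen with earlier results of these data known, and 6 list entries did not match a symbol. Named genes were the 15 largest rises and 15 largest falls among TREAT calls whose groups did not overlap, with a mean of at least 5 CPM in the higher group, leaving out clone names and pseudogenes. In each list up to 5 members with the largest changes past the moderated test and the members a list is best known for were also named, as were genes the paper names in connection with ZEB1. KRT75, NETO2 and the other members named in the text were chosen after their values were seen. Intervals on ratios cover counting error only. Alternatives were other scalings, filters, tools, sample sets, a replicate block, sample weights, removal of a GC and length trend, and leaving out each wild type library. Some named members are not reported here.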

Additional observations from a re-analysis of the deposited data

How the results depend on the processing

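TREAT called 1000 genes between the wild type groups, 945 with DESeq2, 1406 with edgeR, and 749 to 875 when any 1 wild type library was left out. At a threshold of the log2 of 1.2 it called 6008, and 3184 genes passed the moderated test while their estimate lay beyond 1 on the log2 scale in either direction. The moderated count of 9098 ran from 8322 to 8588 with 1 library left out. Against No gRNA, the 406 TREAT calls became 238 with the stricter filter (at least 10 counts in all 15 libraries) and 618 with edgeR's quasi-likelihood test, and the cause was not tested. Of 354 named genes, 3 that passed the moderated test in at least 1 fit turned direction, all with the GC and length trend removed: CDKN1A then had a log2 fold change of -0.064, against 0.14, FASN had -0.093, against 0.56, and ZEB1 had 0.30, against -0.04. The cause was not tested. Of 6284 values of named genes under 18 alternatives, 120 lost and 70 gained a test threshold in the same direction. The medians of 6 of the 42 lists (hypoxia, glucocorticoid response, integrins, EMT factors, LXR targets and other cell types) had the other sign under at least 1 alternative. The median of all genes was 0.22 with no filter and at most 0.07 under other scalings.

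With the replicate number as a block TREAT called 946 genes and the moderated test passed 8996. Deviations of same-numbered libraries correlated at 0.02, -0.02 and -0.02, so the numbers were not taken to pair the samples.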
